A study of Mus musculus with 32 samples.

Results

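The pigment cell genes described here are 9 genes of the melanosome, the organelle that makes and stores melanin, and of the cells that carry it: Mitf, Pmel, Dct, Tyrp1, Tyr, Mlana, Slc45a2, Gpr143 and Trpm1. They were chosen by name from the 55492 rows of the deposited table. The choice was made with measured values in view, since Trpm1 and Pmel were among the genes that rose most with dexamethasone (Dex) in the fusion line at day 6. That contrast is therefore described below without a test. Of the 9 genes, 5 passed the filter on low values (at least 1 FPKM in at least 2 of 32 libraries): Mitf, Pmel, Dct, Mlana and Trpm1. FPKM is the number of sequenced fragments scaled by the length of the transcript and by the size of the library. Dct and Trpm1 reached 1 FPKM in the day 6 WT libraries and the day 6 Dex libraries and in no others, so a difference of these groups from the rest was a condition of their being tested.

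Pigment is made in vertebrates by melanocytes, which come from the neural crest, and by the retinal pigment epithelium (RPE), which comes from the same optic vesicle as the neural retina. In both, the transcription factor MITF acts on genes of melanin synthesis and of the melanosome by binding E-boxes in their promoters. In the optic vesicle Mitf is first expressed broadly, and it is then lost from the part that becomes neural retina and kept in the part that becomes RPE, where it acts together with OTX factors.

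The study grew retinal organoids from mouse embryonic stem cells and sequenced polyadenylated RNA from 4 kinds of culture at days 0, 2, 4 and 6, day 0 being stem cells, with 2 libraries in each of 16 groups. WT is the Rx:GFP line, named for a green fluorescent reporter of the eye-field gene Rax; KO is labelled Mettl3 KO, that is, without the catalytic subunit of the writer of N6-methyladenosine on RNA; the fusion line is KO with added wild-type METTL3 joined to a domain the labels call GRBD, cultured without Dex (fusion protein in the cytosol, per the series' design text) or with 10 µM Dex (fusion protein in the nucleus). All organoid groups, WT included, also received AGN at 0.1 µM. Dex was given to no culture without the fusion protein, so a direct action of this synthetic glucocorticoid and an action through the fusion protein cannot be told apart. The labels assign Dex to day 0 samples too, whereas the protocol names treatments of 2, 4 and 6 days. Groups follow the labels. The labels do not say whether the 2 libraries of a group came from separate cultures, so p-values measure the spread between these libraries, which may be technical, nor do they say how many clones each line represents.

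Estimated depth was 28.2 M to 52.8 M fragments per library (M, mega). The knockout is known from the labels: Mettl3 mRNA was at 36.3 and 35.1 FPKM in WT and at 37.9 and 37.3 FPKM in KO at day 6, and gene-level values do not show a small deletion. Eye-field and neural retina markers were present in WT organoids at day 6, with the 6 genes of that list summing to 650 to 684 FPKM, against 117 to 118 FPKM in KO, 182 to 186 FPKM without Dex and 417 FPKM with Dex in both libraries. In KO nearly all of this was Pax6, at 111 and 112 FPKM against 111 and 109 FPKM in WT. Of the 6 genes, 5 were called lower in KO (limma adjusted p under 0.05), where 65.1% of all genes were called and 34.2% called lower. The median change of the 6 genes was -5.71 on the log2 scale. Rax was at 0.28 and 0.32 FPKM in KO and at 121.5 and 115 FPKM in WT. Duplicates correlated across genes at Pearson r of 0.992 to 0.995. The squared difference of duplicates, over that expected from counting fragments, had a median of 1.77 across groups. It was 6.18 in WT at day 0 and 2.44 in KO at day 0. The fit shares its estimate of spread over all groups, so standard errors of comparisons with WT at day 0 may be too small. In whole cultures, fewer cells of a type and less RNA per cell cannot be told apart.

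Because Dct and Trpm1 had the most similar patterns among the tested genes, and Tyr, a gene of the same pathway, was listed at 0 in most libraries, the 250 bases before their start sites are shown. The windows are from RefSeq, in GRCm38.p6. Capitals mark CATGTG or its reverse complement CACATG, the core of the E-box that MITF binds in pigment genes, and TAATCC or its reverse complement GGATTA, a motif bound by OTX factors. Dct lies at chr14:118052247-118052496 on the minus strand, Trpm1 (the upstream of its 2 windows) at chr7:64153585-64153834 on the plus strand and Tyr at chr7:87493513-87493762 on the minus strand.
Dct: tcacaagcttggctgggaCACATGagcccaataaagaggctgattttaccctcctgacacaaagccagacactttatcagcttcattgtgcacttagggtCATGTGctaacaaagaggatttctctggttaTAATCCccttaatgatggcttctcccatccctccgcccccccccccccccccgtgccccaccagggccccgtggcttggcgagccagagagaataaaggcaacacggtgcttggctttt
Trpm1: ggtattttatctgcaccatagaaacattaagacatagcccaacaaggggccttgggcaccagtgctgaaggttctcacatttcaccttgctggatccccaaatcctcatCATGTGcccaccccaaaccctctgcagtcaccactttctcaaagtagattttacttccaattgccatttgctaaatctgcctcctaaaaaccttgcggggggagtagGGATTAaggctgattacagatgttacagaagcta
Tyr: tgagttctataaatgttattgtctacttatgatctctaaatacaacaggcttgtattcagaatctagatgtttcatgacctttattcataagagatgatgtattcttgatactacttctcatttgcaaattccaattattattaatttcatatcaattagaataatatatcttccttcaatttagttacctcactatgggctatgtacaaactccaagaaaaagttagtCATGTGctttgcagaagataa

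Positions are those of the motif's first base in the printed strand, counted from the start site. The Dct window held the E-box at -232 (as CACATG) and at -150 (as CATGTG), and the OTX motif at -119. The upstream Trpm1 window held the E-box at -141 and the OTX motif, as GGATTA, at -34. The Tyr window held the E-box at -21. RefSeq windows, reaching from 250 bases before to 50 bases after the start, were matched for 5 of the 9 genes (Dct, Mitf, Trpm1, Tyr and Tyrp1), 8 windows in all. CATGTG, on either strand, was in 5 of the 8, and in 14.2% of all 32851 windows of the same length. TAATCC, on either strand, was in 4 of the 8, and in 7.06% of all windows. The palindrome CACGTG, which shares no full match with CATGTG, was in 1 of the 8 (the downstream Trpm1 window, at -229) and in 7.15% of all windows. None of the 3 Mitf windows held CATGTG or CACGTG. These are descriptions of letters, and Tyr, with the same E-box as Dct and Trpm1, was hardly detected.

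Trpm1 also hosts a microRNA, mmu-miR-211, in an intron on its own strand (mature 5p arm at chr7:64205831-64205852), whose relative mmu-miR-204 lies in an intron of Trpm3 (chr19:22750610-22750631). Their mature 5p arms from RefSeq are shown because they share a seed, bases 2 to 8, given in capitals.
mmu-miR-211-5p: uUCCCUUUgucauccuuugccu
mmu-miR-204-5p: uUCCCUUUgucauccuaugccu

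Libraries of polyadenylated RNA do not measure mature microRNAs, and the rows of Mir211 and Mir204 were listed at 0 in all 32 libraries. The host genes were measured. Trpm3, named here after its values were seen, was at a mean of 3.44 FPKM in the Dex group at day 6 and at 1.73 FPKM in WT, 0.51 FPKM in KO and 0.375 FPKM without Dex.

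**Figure D1:**
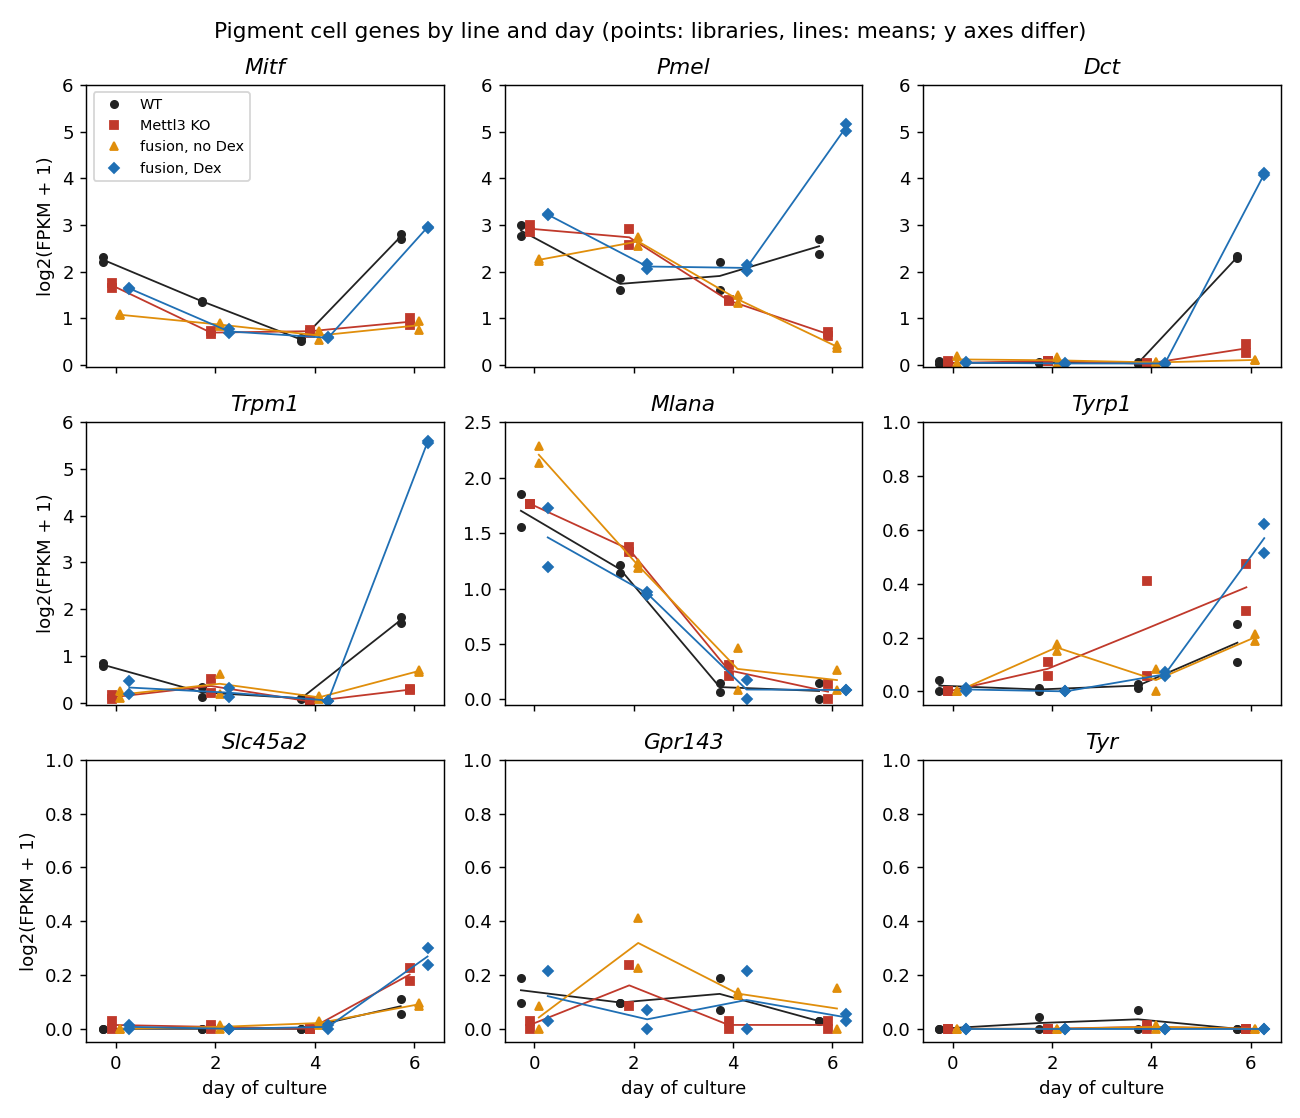
Level of each of the 9 genes as log2(FPKM + 1) against day of culture; each point is a library, lines join the means of the 2 libraries of a group, and y axes differ between panels. Mitf, Pmel, Dct and Trpm1 were high at day 6 in the fusion line with Dex, while Tyr, Gpr143, Slc45a2 and Tyrp1 stayed below 1 FPKM in every library.

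Mitf (ENSMUSG00000035158; GRCm38 chromosome 6, 97807052 to 98021349, plus strand) encodes the transcription factor at the head of the pigment programme. At day 0 it was at 3.61 and 3.98 FPKM in WT, 2.16 and 2.40 FPKM in KO, 1.10 and 1.12 FPKM without Dex, and 2.10 and 2.14 FPKM with Dex. At day 2 it was at 1.59 and 1.57 FPKM in WT and between 0.58 and 0.86 FPKM in the 6 libraries of the other lines. At day 4 all 8 libraries lay between 0.43 and 0.69 FPKM. WT, the highest line at days 0 and 2, overlapped no Dex and Dex at day 4 and lay below KO. At day 6 Mitf was at 5.47 and 6.03 FPKM in WT and at 6.67 and 6.82 FPKM with Dex, against 1.00 and 0.81 FPKM in KO and 0.69 and 0.93 FPKM without Dex. WT and Dex stood apart from KO and no Dex, KO and no Dex overlapped, and the ratio of the Dex mean to the WT mean was 1.17. Gene-level values do not separate the 8 annotated transcripts, some of which start at promoters used mainly in melanocytes or mainly in RPE.

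Pmel (ENSMUSG00000025359; chromosome 10, 128704195 to 128720238, plus strand) encodes the protein that forms the fibrils on which melanin is laid down. It was present in stem cells, at 5.82 and 6.95 FPKM in WT, 7.0 and 6.17 FPKM in KO, 3.84 and 3.70 FPKM without Dex and 8.28 and 8.40 FPKM with Dex. At day 2 it was at 2.67 and 2.04 FPKM in WT, 4.93 and 6.49 FPKM in KO, 4.87 and 5.70 FPKM without Dex and 3.49 and 3.16 FPKM with Dex. At day 2 WT was thus the lowest line, followed by Dex, with KO and no Dex overlapping above them. At day 4 it was at 2.05 and 3.62 FPKM in WT, 1.63 and 1.59 FPKM in KO, 1.83 and 1.5 FPKM without Dex and 3.40 and 3.07 FPKM with Dex. WT and Dex overlapped at day 4, as did KO and no Dex. At day 6 it was at 4.22 and 5.53 FPKM in WT, 0.54 and 0.63 FPKM in KO, 0.29 and 0.34 FPKM without Dex, and 34.7 and 31.5 FPKM with Dex. The 4 groups did not overlap at day 6, and the Dex mean was 6.79 times that of WT. Pmel shares 837 bases with Cdk2 and 105 bases with Dgka, both on the opposite strand, and whether the counting used strand is not given in the sources used here, so its level is uncertain to that extent. Cdk2, a kinase of the cell cycle, was at 39.0 FPKM in WT, 36.6 FPKM in KO, 33.2 FPKM without Dex and 35.5 FPKM with Dex at day 6 (means of 2 libraries), without the order of Pmel. Dgka, a lipid kinase, was at 2.98 and 3.11 FPKM in WT, 3.01 and 2.28 FPKM with Dex, 2.22 and 2.17 FPKM without Dex and 1.97 and 1.89 FPKM in KO at day 6, so it was higher in WT and Dex, as Pmel was. At day 0 Dgka was at a mean of 17.5 FPKM with Dex and 10.35 FPKM without, again in the order of Pmel. Its part in the Pmel values was not tested.

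Dct (ENSMUSG00000022129; chromosome 14, 118012790 to 118052244, minus strand) encodes dopachrome tautomerase, an enzyme of eumelanin synthesis that is also an early marker of melanoblasts and of presumptive RPE. No library exceeded 0.15 FPKM before day 6. At day 6 it was at 4.06 and 3.90 FPKM in WT, 0.37 and 0.20 FPKM in KO, 0.08 FPKM in both libraries without Dex, and 16.3 and 15.8 FPKM with Dex. The Dex mean was 4.03 times that of WT. Each of the 4 groups stood apart from the others at day 6. Dct overlaps an annotated antisense gene, 4930435M08Rik, so its reads carry the same doubt over strand.

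Trpm1 (ENSMUSG00000030523; chromosome 7, 64153835 to 64269775, plus strand) encodes an ion channel of melanocytes, RPE and retinal ON bipolar cells, and is a known target of MITF. At day 0 it was at 0.80 and 0.71 FPKM in WT and between 0.05 and 0.38 FPKM in the other 6 libraries. At days 2 and 4 all 16 libraries lay between 0.01 and 0.53 FPKM. At day 6 it was at 2.56 and 2.25 FPKM in WT, 0.20 and 0.22 FPKM in KO, 0.61 and 0.58 FPKM without Dex, and 45.8 and 47.6 FPKM with Dex. Among the 9 genes it was the highest in that group on this per-length scale, 19.4 times the WT mean.

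Mlana (ENSMUSG00000024806; chromosome 19, 29697824 to 29708634, plus strand), which encodes a melanosome membrane protein that works with PMEL, went the other way. It was at its highest in stem cells, at 2.61 and 1.93 FPKM in WT, 2.40 and 2.40 FPKM in KO, 3.87 and 3.38 FPKM without Dex and 2.31 and 1.29 FPKM with Dex. At day 2 it lay between 0.92 and 1.60 FPKM in all 8 libraries, at day 4 between 0 and 0.38 FPKM, and at day 6 between 0 and 0.20 FPKM. The level that 3 fragments give was 0.0923 FPKM in the deepest library and 0.172 FPKM in the shallowest, so the day 6 values were near that of a few fragments. These limits cover counting error only. With Dex at day 6, where Pmel was at its highest, Mlana was at 0.06 FPKM in both libraries.

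The remaining 4 genes did not reach 1 FPKM. Tyr (ENSMUSG00000004651; chromosome 7, 87424771 to 87493512, minus strand), which encodes tyrosinase, the rate-limiting enzyme of melanin synthesis, had a highest value of 0.05 FPKM, in 1 WT library at day 4. It was listed at 0 in all 8 libraries of day 6, where 3 fragments would give at most 0.0185 FPKM. Tyrp1 (ENSMUSG00000005994; chromosome 4, 80834123 to 80851719, plus strand), a further enzyme of eumelanin synthesis, was at 0.54 and 0.43 FPKM with Dex at day 6, against 0.08 and 0.19 FPKM in WT, 0.23 and 0.39 FPKM in KO and 0.14 and 0.16 FPKM without Dex. Slc45a2 (ENSMUSG00000022243; chromosome 15, 11000721 to 11029233, plus strand), a melanosomal transporter, was at 0.23 and 0.18 FPKM with Dex at day 6, 0.13 and 0.17 FPKM in KO, 0.07 and 0.06 FPKM without Dex, and 0.04 and 0.08 FPKM in WT. Among the day 6 groups both genes thus had their highest values with Dex, above the level that 3 fragments give (at most 0.0437 FPKM for Tyrp1 and 0.0394 FPKM for Slc45a2). Gpr143 (ENSMUSG00000025333; chromosome X, 152781921 to 152808646, plus strand), a receptor of the melanosome membrane mutated in ocular albinism, had its highest value of 0.33 FPKM without Dex at day 2, and lay between 0 and 0.11 FPKM at day 6. By group means at day 6, 4 of the 9 genes were thus above 1 FPKM with Dex, 4 in WT, 0 in KO and 0 without Dex. Tyr was not detectable at this depth in any of these groups.

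The contrast that chose the genes, Dex against no Dex at day 6, is given as a description. On the log2(FPKM + 1) scale, which understates changes of low genes, the differences were 4.90 for Trpm1, 4.70 for Pmel, 3.98 for Dct, 2.10 for Mitf, 0.37 for Tyrp1, 0.18 for Slc45a2, 0 for Tyr, -0.03 for Gpr143 and -0.09 for Mlana. The median over the 9 genes was 0.37. With a pseudocount of 0.1 in place of 1 it was 1.22. As ratios of mean FPKM, Mitf was 8.33 times, Trpm1 78.5 times and Pmel 105 times as high with Dex. For Dct the no Dex level of 0.08 FPKM is only a few times that of 3 fragments (0.0179 to 0.0335 FPKM), so its ratio is imprecise. The summed FPKM of the 9 genes at day 6 was 102 and 104 with Dex, 16.6 and 18.0 in WT, 2.44 and 2.57 in KO and 2.08 and 2.32 without Dex.

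The loss of Mettl3 was compared at each day as KO against WT. The differences of means use no library of the fusion line. The filter and the estimate of spread behind each SE and p-value use all 32 libraries, those of the fusion line at day 6 included. At day 6 Mitf, Pmel, Dct and Trpm1 were lower in KO, 4 of the 5 tested genes, where 65.1% of the 16276 genes were called in either direction and 34.2% were called lower. Mitf differed by -1.83 ± 0.07 on the log2 scale (SE, limma adjusted p = 5.21e-14). Pmel differed by -1.88 ± 0.15 (limma adjusted p = 2.17e-09). Dct differed by -1.96 ± 0.07 (limma adjusted p = 2.6e-15) and Trpm1 by -1.49 ± 0.12 (limma adjusted p = 2.07e-09). The fifth gene, Mlana, was near 0 in both lines and gave -0.01 (limma adjusted p = 0.982). Because Dct and Trpm1 entered the test partly through their WT day 6 values, the count of 4 in 5 is a description and supports nothing further. Leaving out either library of either group kept these 4 genes lower in KO. Rescaling and the other settings tried kept the 4 calls, except that a mean of at least 5 FPKM left Pmel alone to test. Changes ranged from -2.55 to -1.75 for Mitf and from -2.85 to -1.72 for Pmel. They ranged from -3.44 to -1.86 for Dct and from -3.01 to -1.42 for Trpm1. The number of genes called ran from 1 to 6, and more than 5 can be called only without the filter. Of the genes this adds, Tyrp1 (0.31 against 0.135 FPKM) and Slc45a2 (0.15 against 0.06 FPKM) had higher means in KO than in WT. Gpr143 was lower in KO (0.01 against 0.02 FPKM), and Tyr was at 0 in both. Which of these were called is not given here.

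Before day 6 the differences between KO and WT were smaller and did not keep 1 direction. At day 0, in stem cells, 2 of the 5 genes were called and both were lower in KO, against a background of 48.2% called and 29.8% called lower. They were Mitf, at -0.55 ± 0.07 (limma adjusted p = 5.72e-06), and Trpm1, at -0.70 ± 0.12 (limma adjusted p = 9.52e-05). Pmel, at 0.04 ± 0.15, was not called (limma adjusted p = 0.872). At day 2 another pair was called, against 58.9% of all genes: Mitf was lower, by -0.67 ± 0.07 (limma adjusted p = 2.39e-07), and Pmel was higher, by 1.00 ± 0.15 (limma adjusted p = 1.7e-05). Mitf and Pmel thus differed in opposite directions between the same cultures. At day 4, where 60.5% of all genes were called, Mitf was at 0.18 ± 0.07 (limma adjusted p = 0.0431) and Pmel at -0.52 ± 0.15 (limma adjusted p = 0.0065). Neither call held in all settings. Pmel was not called without WT replicate 2 (-0.22, limma adjusted p = 0.224), and Mitf was not called after rescaling (limma adjusted p = 0.11) or with either library of either group left out.

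The KO against WT difference itself was larger at day 6 than at day 0 for Mitf, Pmel, Dct and Trpm1. In an interaction contrast, 56.9% of all genes were called and 25.8% were called in the negative direction, and these 4 of the 5 tested genes were called, all negative. The interaction was -1.28 ± 0.11 for Mitf (limma adjusted p = 4.36e-09), -1.92 ± 0.22 for Pmel (limma adjusted p = 3.77e-07), -1.95 ± 0.09 for Dct (limma adjusted p = 1.52e-12) and -0.79 ± 0.17 for Trpm1 (limma adjusted p = 0.000659). That of Trpm1 was not called with a pseudocount of 0.1 (limma adjusted p = 0.341). Dct and Trpm1 entered the test through their day 6 WT and Dex values. Their negative interaction was thus in part a condition of being tested, and the count of 4 in 5 is a description.

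**Figure D2:**
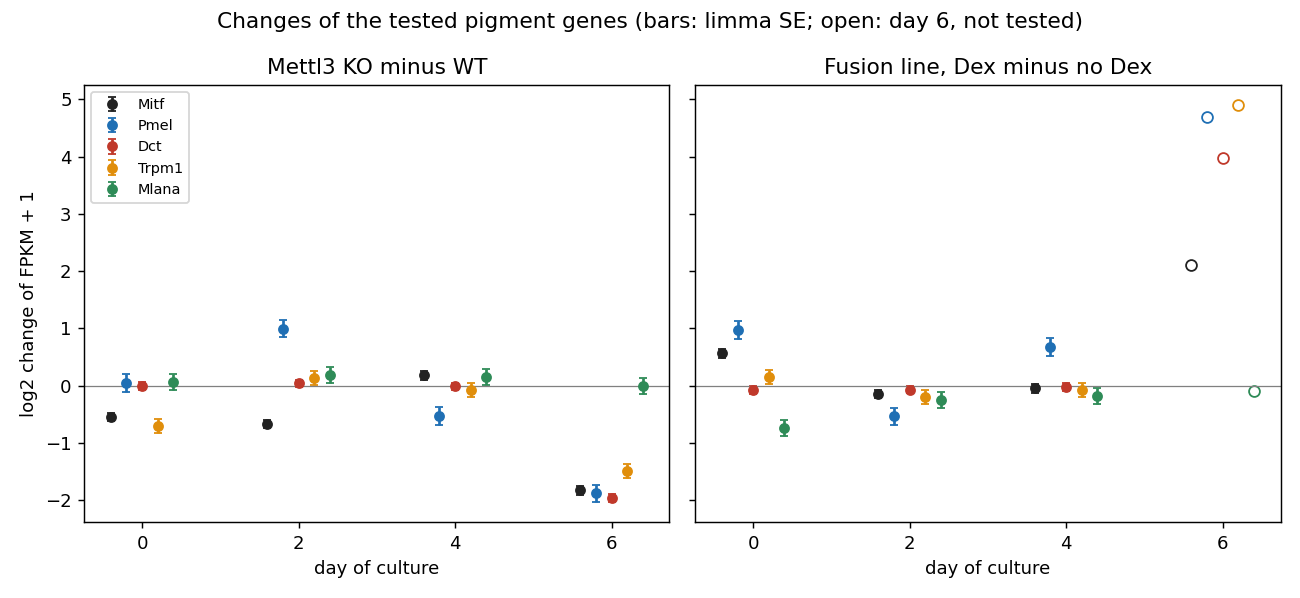
Change on the log2(FPKM + 1) scale against day of culture for the 5 tested genes, KO minus WT on the left and Dex minus no Dex on the right; points are estimates, bars are SE from limma, and open points mark the day 6 contrast that chose the genes and was not tested. On the left Mitf, Pmel, Dct and Trpm1 lie between -1.96 and -1.49 at day 6; on the right the largest tested change in either direction is that of Pmel at day 0, at 0.97.

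In the fusion line the tests stopped at day 4, since the day 6 libraries had been used in the choice. At day 4 Pmel alone among the 5 genes was called with Dex, and it was higher, by 0.67 ± 0.15 (limma adjusted p = 0.0018), where 40.2% of all genes were called and 18.3% were called higher. Mitf (-0.05, limma adjusted p = 0.655), Dct (-0.02, limma adjusted p = 0.848) and Trpm1 (-0.07, limma adjusted p = 0.712) were not called, 2 days before their day 6 levels. At day 2 Pmel was lower with Dex, by -0.54 ± 0.15 (limma adjusted p = 0.00838), and was the 1 gene called, with 44.3% of all genes called and 31.5% called lower. Without replicate 2 of the no Dex group (limma adjusted p = 0.0808) or of the Dex group (limma adjusted p = 0.0616) this was not called.

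At day 0, 3 of the 5 genes were called between the cultures labelled with and without Dex, against 43.4% of all genes. Mitf was at a mean of 1.11 FPKM without Dex, 2.12 FPKM with Dex and 2.28 FPKM in KO. In the same order, Pmel was at 3.77, 8.34 and 6.585 FPKM, and Mlana at 3.625, 1.80 and 2.40 FPKM. No Dex thus stood apart from KO as well, a difference that was not tested at day 0. Mitf was higher with Dex, by 0.56 ± 0.07 (limma adjusted p = 5.05e-06), as was Pmel, by 0.97 ± 0.15 (limma adjusted p = 4.36e-05). Mlana was lower, by -0.75 ± 0.14 (limma adjusted p = 0.000238), and was not called with a pseudocount of 0.1 (limma adjusted p = 0.0979) or in a fit of the compared groups alone (limma adjusted p = 0.0919). The Dex difference changed between days 0 and 4 for Mitf, by -0.61 ± 0.11 (limma adjusted p = 0.000159), and for Mlana, by 0.56 ± 0.20 (limma adjusted p = 0.035), these being 2 of 5, with 34.8% of all genes called. The Mlana change was not called with a pseudocount of 0.1 (0.15, limma adjusted p = 0.896), without a filter (limma adjusted p = 0.074), in the compared groups alone (limma adjusted p = 0.213) or without any of 4 single libraries (lowest value 0.29, limma adjusted p = 0.237).

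The other day 4 comparisons called none of the 5 genes. No Dex against KO gave 0 of 5 in limma, 0 of 5 also at an unadjusted p under 0.05, with 26.7% of all genes called. Dex against WT gave 0 of 5, again 0 of 5 at an unadjusted p under 0.05, with 44.7% of all genes called; Pmel was at 0.17 ± 0.15 (limma adjusted p = 0.4). Without WT replicate 2, 1 of the 5 was called in that comparison. A missed threshold does not show that the levels were alike.

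Over time, Mitf rose in WT and fell in KO, while Mlana fell in both. From day 0 to day 6 in WT, Dct rose by 2.27 ± 0.07, Trpm1 by 0.96 ± 0.12 and Mitf by 0.49 ± 0.07, while Mlana fell, at -1.63 ± 0.14 (limma adjusted p from 6.22e-17 to 5.68e-06). These were 4 of the 5 genes, with 78.1% of all genes called. Dct and Trpm1 passed the filter through their day 6 WT and Dex values, so their rise in WT was a condition of being tested. Pmel, at -0.33 ± 0.15, was not called (limma adjusted p = 0.0563). It lay close to the threshold, and which side it fell on varied with the library left out. In KO over the same days, where 80.4% of all genes were called, 4 of 5 were called as well, but Mitf fell (-0.78 ± 0.07), Pmel fell (-2.26 ± 0.15) and Mlana fell (-1.70 ± 0.14), while Dct rose by 0.32 ± 0.07 (limma adjusted p from 5.27e-11 to 0.000198). Trpm1, at 0.16 ± 0.12, was not called in KO (limma adjusted p = 0.224).

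In the fusion line all called changes from day 0 to day 4 were falls. Without Dex, 3 of 5 genes fell, with 76.6% of all genes called and 30.1% called lower: Mitf (-0.44 ± 0.07), Pmel (-0.84 ± 0.15) and Mlana (-1.93 ± 0.14). With Dex, 4 of 5 fell, with 75.4% called and 33.1% called lower: Mitf (-1.06 ± 0.07), Pmel (-1.14 ± 0.15), Mlana (-1.37 ± 0.14) and Trpm1 (-0.28 ± 0.12, limma adjusted p = 0.0473). With single libraries left out, the Trpm1 change in that comparison ran from -0.42 to -0.13. Its call held in some of these fits and not in others. With Dex, the day 6 levels of Mitf and Trpm1 thus followed low values at day 4, between 0.49 and 0.51 FPKM for Mitf and at 0.03 FPKM in both libraries for Trpm1.

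The factors that act with MITF or on Mitf were read from a list of 13 genes, all tested. In KO against WT at day 6, 6 were higher and 5 lower, with a median of 0.02 against -0.03 over all genes. There 65.1% of all genes were called and 34.2% called lower. Otx2, which acts with MITF in RPE, was higher in KO by 0.95 ± 0.03 (limma adjusted p = 6.3e-16). It was at 105 and 104 FPKM in WT, 203 and 204 FPKM in KO, 166 and 170 FPKM without Dex and 138 and 137 FPKM with Dex, so it was high in all 4 lines, including those with little Mitf. Tfec, a MITF relative expressed in RPE, was lower in KO by -1.33 ± 0.07 (limma adjusted p = 5.58e-12), at 1.31 and 1.80 FPKM in WT and 0 and 0.02 FPKM in KO. It was at 0.02 and 0 FPKM without Dex and at 0.40 and 0.41 FPKM with Dex, so at day 6 it stood in the order WT, Dex, then KO and no Dex overlapping. Tfec was already at 2.29 and 2.54 FPKM in WT at day 2, where it was at 0.04 and 0.02 FPKM in KO, 0.23 and 0.16 FPKM without Dex and 0.41 and 0.42 FPKM with Dex. The summed FPKM of 6 endoderm markers at day 2 had the same order, at 51.4 to 52.1 in WT, 10.9 to 11.7 with Dex, 7.04 to 7.40 without Dex and 5.62 to 5.88 in KO. The part of endoderm in the Tfec values was not tested. Lhx2, an eye-field factor needed for optic vesicle patterning, was lower in KO by -5.30 ± 0.14 (limma adjusted p = 5.48e-17).

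At day 4, with Dex, 6 of the 13 factors were higher and none lower, where 40.2% of all genes were called and 18.3% called higher, with a median of 0.13 against -0.01 over all genes. Lhx2 rose by 2.54 ± 0.14 (limma adjusted p = 3.65e-11) and Otx2 by 0.12 ± 0.03 (limma adjusted p = 0.0034). Pax6 was at 41.5 and 39.6 FPKM with Dex and 9.42 and 9.96 FPKM without. Among the factors, then, some were called with Dex at day 4 in cultures where Mitf was not called, which does not show that Mitf was unchanged.

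Later genes of RPE gave a mixed picture. Of a list of 15, 6 were tested, and in KO against WT at day 6 all 6 were called, 3 in each direction: Rlbp1, Rdh5 and Serpinf1 higher, and Ttr, Mertk and Stra6 lower, with a median of 0.06 against -0.03 over all genes, of which 65.1% were called and 34.2% called lower. Ttr, which is also made by endoderm, was at 4.99 and 4.00 FPKM in WT at day 2 and listed at 0 in KO, as the endoderm markers were high in WT and low in KO on that day. With Dex at day 4, the median was 0.13 against -0.01 over all genes, of which 40.2% were called and 18.3% called higher. Of the 6 genes, 2 were higher and none lower. They were Rlbp1, a retinoid carrier of RPE and Müller glia, by 1.35 ± 0.10 (limma adjusted p = 3.67e-09), and Stra6, the receptor for retinol-binding protein, by 0.95 ± 0.09 (limma adjusted p = 8.49e-08). At day 6 Rlbp1 was at 6.12 and 6.35 FPKM with Dex, 2.01 and 1.92 FPKM without Dex, 1.34 and 1.53 FPKM in KO and 0.89 and 0.98 FPKM in WT. Stra6 was at 12.9 and 13.4 FPKM with Dex, 7.36 and 7.53 FPKM in WT, 6.05 and 6.53 FPKM in KO and 3.41 and 3.75 FPKM without Dex. The 9 genes of the list that were not tested were low at day 6. Rgr was listed at 0 in all 8 libraries, Lrat was at most 0.03 FPKM and Rpe65, the retinoid isomerase, at most 0.07 FPKM. Cldn19 was at most 0.19 FPKM, Slc16a8 at most 0.26 FPKM and Best1 between 0.24 and 0.41 FPKM. Rrh, an opsin of RPE, was at 0.70 and 0.78 FPKM in WT, 0.28 and 0.39 FPKM with Dex, 0.16 and 0.20 FPKM in KO and 0.06 FPKM in both libraries without Dex. Kcnj13, a potassium channel of RPE, was at 0.36 and 0.40 FPKM in WT, 0.53 and 0.52 FPKM with Dex, 0.19 and 0.04 FPKM in KO and 0.09 and 0.03 FPKM without Dex. At day 6 Rrh and Kcnj13 were thus higher in WT and Dex than in KO and no Dex, as Mitf was. Both were below 1 FPKM, and duplicates could differ widely, Kcnj13 being at 0 and 0.73 FPKM without Dex at day 4. Tspan10, a tetraspanin of pigment cells, was at 0.84 and 1.02 FPKM with Dex and at or below 0.08 FPKM in the other 6 libraries.

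The machinery that builds and moves melanosomes, shared in large part with other lysosome-related organelles, showed no common direction. Of a list of 30 genes, 26 were tested. In KO against WT at day 6, 9 were higher and 7 lower, with a median of -0.08 against -0.03 over all genes. Of all genes, 65.1% were called in that comparison and 34.2% called lower. With Dex at day 4, 6 were higher and 7 lower, with a median of 0.01 against -0.01 over all genes. There 40.2% of all genes were called and 18.3% called higher. The summed FPKM of the list at day 6 was 733 to 744 in WT, 785 to 787 in KO, 775 to 780 without Dex and 823 to 834 with Dex. Cd63, a tetraspanin that sorts PMEL, made up much of it, at 203 and 202 FPKM in WT and 271 and 271 FPKM with Dex.

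Markers of other cells that could carry these transcripts were set beside the day 6 levels. Melanocytes come from the neural crest, and 11 of the 12 melanoblast and neural crest markers were tested. In KO against WT at day 6, 10 were higher and 1, Kit, was lower. Among all genes 65.1% were called and 34.2% called lower. The median of the markers was 1.49, against -0.03 over all genes. Sox10, which activates Mitf in melanoblasts, was at 14.2 and 14.3 FPKM in KO and 0.51 and 0.59 FPKM in WT, and Pax3 at 33.0 and 32.8 FPKM in KO and 0.61 and 0.50 FPKM in WT. The summed FPKM of the 12 markers was 97.8 to 98.1 in KO, 91.6 to 93.7 without Dex, 37.2 to 38.4 with Dex and 18.4 to 18.5 in WT. KO and no Dex, the lines with the least Mitf, Pmel and Dct, thus had the most of these markers, but Dex had more of them than WT while also having more of the 4 pigment genes. In the Dex group Sox10 was still at 7.03 and 7.93 FPKM and Pax3 at 3.82 and 3.79 FPKM, and the melanocyte receptor gene Mc1r was at a mean of 0.175 FPKM. The part of neural crest cells in the Dex group's pigment transcripts was not tested.

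**Figure D3:**
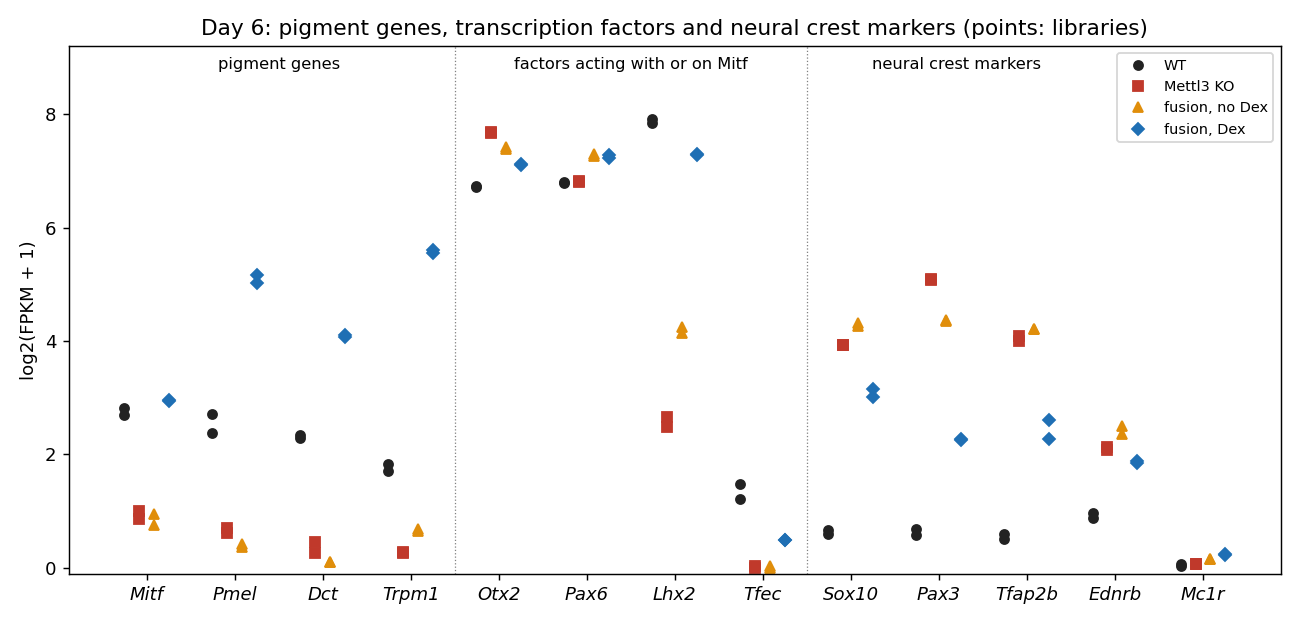
Day 6 levels as log2(FPKM + 1) of 4 pigment genes, 4 transcription factors that act with MITF or on Mitf, and 5 melanoblast and neural crest markers; each point is a library, with 2 per line. The pigment genes are high in WT and Dex and low in KO and no Dex, whereas Sox10, Pax3 and Tfap2b are lowest in WT.

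Bipolar cells of the retina also express Trpm1. Of 9 bipolar markers 3 were tested, and none was called in KO against WT at day 6 or with Dex at day 4 by limma. Their summed FPKM at day 6 was 0.97 to 1.08 with Dex, overlapping KO, against 1.19 to 1.44 in WT, 1.00 to 1.45 in KO and 1.74 to 2.01 without Dex. Grm6, the glutamate receptor that works with TRPM1 in these cells, was at a mean of 0.095 FPKM with Dex. Extraembryonic and other endoderm, a frequent side product of stem cell cultures, was represented by 6 markers that were all lower in KO than in WT at day 6, summing to 68.4 to 68.6 FPKM in WT, 11.8 FPKM in KO, 8.68 to 8.77 FPKM without Dex and 11.7 FPKM with Dex. The 5 neuron markers were all higher in KO than in WT, summing to 303 to 308 FPKM in KO, 244 to 247 FPKM without Dex, 146 to 147 FPKM with Dex and 42.3 to 44.3 FPKM in WT. The 6 pluripotency markers were all lower in KO, summing to 86.1 to 86.7 FPKM in WT and to between 28.4 and 33.4 FPKM in the libraries of the other 3 lines. In KO against WT at day 6, 65.1% of all genes were called and 34.2% called lower. With Dex at day 4, 40.2% of all genes were called. The part of these cell types in the pigment gene differences was not tested.

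The tested genes resembled each other to different degrees across the 16 group means of log2(FPKM + 1), which share libraries and depth. Pearson r was 0.957 between Dct and Trpm1, 0.763 between Mitf and Dct, 0.742 between Mitf and Trpm1, 0.690 between Pmel and Trpm1, 0.679 between Mitf and Pmel, and 0.629 between Pmel and Dct. Mlana stood apart, at 0.278 with Pmel, 0.0697 with Mitf, -0.288 with Trpm1 and -0.378 with Dct. These values are descriptions, with no test.

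Other genes were then ranked by their likeness to the mean standardised profile of the 5 genes, among 11581 genes with a group mean of at least 5 FPKM in some group. The profile includes the Dex day 6 group that was used to choose the members, so likeness to it restates that choice in part. The closest were Slc38a8 (r = 0.924), Tmem222 (0.825), Gm6134 (0.772), Tbx2 (0.756), A730049H05Rik (0.752), Rgcc (0.751), Rps6kb2 (0.744), F3 (0.741), Tex30 (0.736) and Mtus1 (0.730). Slc38a8, an amino acid transporter gene mutated in foveal hypoplasia, was at a mean of 20.97 FPKM with Dex at day 6, 0.965 FPKM in WT, 0.175 FPKM in KO and 0.045 FPKM without Dex. Like Mitf it was also present in stem cells, at 1.90 FPKM in WT and between 0.82 and 0.965 FPKM in the other lines. Tbx2, a transcription factor of the dorsal optic vesicle and of melanoblasts, was at 22.7 FPKM with Dex at day 6 and at or below 0.70 FPKM in the other 15 groups. Gm6134, a predicted gene whose reads may belong to a relative, was listed at 0 in 15 groups and at 11.5 FPKM with Dex at day 6.

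**Figure D4:**
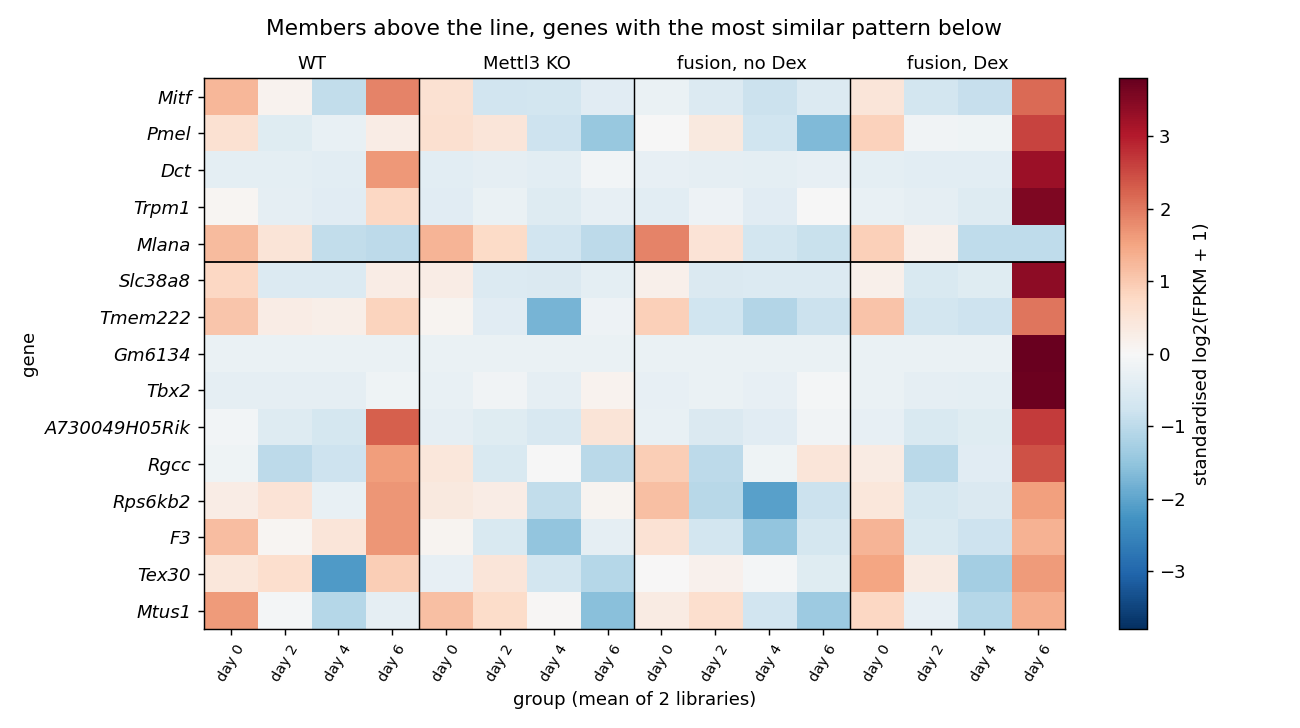
Group means of log2(FPKM + 1), standardised within each gene, for the 5 tested pigment genes (above the line) and the 10 genes most like their mean profile (below); columns are the 16 groups, ordered by line and day. The Dex day 6 column is the highest for Mitf, Pmel, Dct, Trpm1, Slc38a8, Tmem222, Gm6134, Tbx2, A730049H05Rik, Rgcc and Tex30. Mlana and Mtus1 are highest at day 0, and Rps6kb2 and F3 in WT at day 6.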

How the data were processed

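Polyadenylated RNA was sequenced in 32 libraries, 2 in each of 16 groups, taken from the labels. The authors deposited gene-level FPKM values, rounded to 2 decimals; the submitters' processing notes name STAR, Cuffdiff and mm10, without versions or roles. How reads were assigned to strands is not given in the sources used here. Ensembl identifiers of 99.4% of the rows were found in the GENCODE annotation (GRCm38), the source of coordinates.

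From these values, limma 3.58.1 in R 4.3.3 was fitted to log2(FPKM + 1) with a mean-variance trend, over all 32 libraries and 16 group means (16 residual degrees of freedom), for 16276 genes with at least 1 FPKM in at least 2 libraries. In 15 comparisons, two-sided p-values were adjusted over all genes tested (Benjamini-Hochberg), and a gene was called below 0.05. All log2 changes refer to log2(FPKM + 1). On data simulated for no Dex against KO at day 4, 185 of 200 changed genes (log2 change of 1) were recovered on average, with 4.43% of calls false. Each simulated gene had the same spread in all groups, so these rates do not carry over to groups that varied more, such as WT at day 0. Depth was estimated from steps between low FPKM values, of which 85.9% to 92.5% were whole fragments to within 0.2 (chance gives 40%). Differences between duplicates correlated at -0.0558 to 0.0917 between compared groups, so their numbers were not taken to pair them.

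The members and lists were chosen with earlier results of these data known. Named genes are the 9 members, the 10 genes most like them, the 4 highest of each list and factors that place them; other list genes named were chosen after their values were seen. Alternatives were a pseudocount of 0.1, no filter, a mean of at least 5 FPKM, median-of-ratios rescaling, fits of the compared groups alone, a replicate block, and each library left out. One factor of the lists is not reported singly here.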

Additional observations from a re-analysis of the deposited data

Results flagged for a closer look

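The KO against WT difference changed between days 0 and 6 for 4 of the 5 tested pigment genes, by a test of that change (limma interaction contrast, Benjamini-Hochberg adjusted). It was -1.28 for Mitf (limma adjusted p = 4.36e-09), -1.92 for Pmel (limma adjusted p = 3.77e-07), -1.95 for Dct (limma adjusted p = 1.52e-12) and -0.79 for Trpm1 (limma adjusted p = 0.000659). With a pseudocount of 0.1 Trpm1 was not called (-0.75, limma adjusted p = 0.341), which leaves 3 of the 5. Among all genes 56.9% were called in the same contrast, and Dct and Trpm1 were tested because they were high in the WT or Dex libraries of day 6.

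In the fusion line the Dex against no Dex difference changed between days 0 and 4 for Mitf, by -0.61 (limma adjusted p = 0.000159), and for Mlana, by 0.56 (limma adjusted p = 0.035). At day 0 Mitf was at a mean of 1.11 FPKM without Dex, 2.12 FPKM with Dex and 2.28 FPKM in KO. The Mlana change was not called with a pseudocount of 0.1 (0.15, limma adjusted p = 0.896), without a filter, in the compared groups alone or without any of 4 single libraries, and neither was its day 0 difference with that pseudocount (limma adjusted p = 0.0979). Whether the day 0 cultures labelled as Dex treated had received Dex is not clear from the labels, and its part in these values was not tested.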

How the results depend on the processing

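Of 36 called member changes, 0 reversed direction under any alternative. With the replicate number as a block, all 15 counts of called members and all 36 member changes kept their side of the threshold, for example 4 members in KO against WT at day 6. A mean of at least 5 FPKM left 9412 genes and, of the members, Pmel alone, which by construction lowered the counts to 0 (KO against WT at day 0, WT over time, and the Dex interaction) or 1 (KO against WT at days 2, 4 and 6, its interaction, Dex against no Dex at day 0, KO over time, and the fusion line over time without and with Dex). For the rest the cause was not tested. KO against WT at day 4 had 1 called member after rescaling and in the compared groups alone. KO against WT at day 6 and KO over time each had up to 6 called members, which only a fit without the filter can give. The KO against WT interaction had up to 5. Dex against no Dex at day 2 had 2 called members in the compared groups alone and without a filter, and the Dex interaction had 1 in both and with a pseudocount of 0.1, which also moved the day 6 median over the 9 genes to 1.22. Fits with 1 library left out assume that the lone library varies like the other groups. Among them the members called varied in KO against WT at day 4, Dex against no Dex at day 2 and Dex against WT at day 4. They also varied in the Dex interaction, in WT over time and in the fusion line over time with Dex. Pmel ran from -0.82 to -0.22 in KO against WT at day 4 and from -0.63 to -0.44 in Dex against no Dex at day 2. Mlana ran from 0.29 to 0.83 in the Dex interaction, and Trpm1 from -0.42 to -0.13 in the fusion line over time with Dex. Rescaling moved the median of all genes by -0.17 in no Dex over time , by -0.12 in WT over time and by -0.10 in KO over time. At the depths here Tyr, Gpr143 and Mlana at day 6 lay near the level of a few fragments.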
